A study of Mus musculus with 40 samples.

Results

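Overexpression of Pramel7 was compared with wild type in E14tg2a cells, an established mouse embryonic stem cell line. The comparison has 6 libraries of the 40 samples of the series, chosen by their column names in a table of raw read counts: 2 labelled P7OE (Pramel7 overexpression, replicates 1 and 2) and 4 labelled WT (wild type, replicates 3 to 6). All cells of the table were grown in GMEM medium with 10% fetal bovine serum and LIF, the cytokine that keeps these cells undifferentiated. The same table holds 2 libraries each of a Dux knockout (DuxKO, replicates 3 and 4), of Pramel7 overexpression in the Dux knockout (DuxKO_P7OE) and of a Pramel7 knockout (P7KO), 12 libraries in all. The series deals with the corepressor CtBP, with genes of the 2-cell-like state that a small fraction of embryonic stem cells enters, and with Dux, a transcription factor that switches those genes on. How Pramel7 was overexpressed, from which promoter, and whether a line is 1 clone, is not given in the sources used here. Nothing in the labels says that replicates came from separate cultures, so the p-values measure the spread between these libraries, which may be technical.

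PRAMEL7 belongs to the PRAME family of leucine-rich repeat proteins, many of which are made only in germ cells and early embryos. It serves as a substrate adaptor of the CUL2 ubiquitin ligase, and its known substrate is UHRF1, the protein that brings the maintenance methyltransferase DNMT1 to newly copied DNA. PRAMEL7 is therefore known as a factor of low DNA methylation in the inner cell mass and in ground-state embryonic stem cells. DNA methylation itself was not analysed here, and every value below is an RNA measurement.

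The 4 WT libraries held 22442267 to 30095967 counts, and the P7OE libraries 30135341 and 17061530. Structural RNA genes took 10.8% to 24.1% of the counts in WT and 17.1% and 18.5% in P7OE. WT replicates 3 and 4 were closest to each other, and replicates 5 and 6 stood nearly as far from each other as from replicate 4. Across the genes with sufficient counts, the log2 levels of replicates 3 and 4 correlated at 0.990 and those of replicates 5 and 6 at 0.973, against 0.948 to 0.969 across these pairs. The chi-square per gene was 30.6 between replicates 3 and 4, 75.4 between 5 and 6, and 71.7 between 4 and 5. P7OE replicates correlated at 0.989 with each other and at 0.933 to 0.948 with WT. Libraries of 1 group differed by a chi-square per gene of at least 25.8, a mean that includes the structural RNA genes. This value cannot show whether libraries came from separate cultures. Each library was entered in the fit as its own sample. Summed markers of embryonic stem cells reached 2284 to 3324 CPM (counts relative to the scaled library size) in WT and 2528 and 2599 CPM in P7OE, and 10 of 10 were detected. Fibroblast markers, which feeder cells would bring, summed to 37.9 to 49.2 CPM in WT and to 72.7 and 69.2 CPM in P7OE. Of those 16 markers, 9 stayed under 1 CPM in all 6 libraries and Postn had 0 counts.

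Pramel7 (chr2:87489088-87492418, GRCm38.p6) had 2, 2, 4 and 2 counts in the WT libraries and 435 and 431 counts in the P7OE libraries. These are 0.0757 to 0.154 CPM against 14 and 26.2 CPM. The fitted log2 change was 7.56 (SE 0.38, adjusted p 3.63e-07). Here and below, adjusted p-values are those of edgeR's quasi-likelihood test, adjusted by Benjamini-Hochberg over all 20161 tested genes, a gene counts as called, or as having risen or fallen, under 0.05, and log2 changes are P7OE minus WT unless another contrast is named. The 2 P7OE libraries had almost the same count, and the higher CPM of replicate 2 comes from its smaller total. In DuxKO_P7OE the level was higher still, 49.3 and 56.7 CPM against 0 counts in both DuxKO libraries, at least 808-fold. P7KO had 0 and 3 counts, too close to WT for RNA to check that label. Of 6 tested genes of the Pramel family, 2 rose, Pramel7 included, and 1 fell. Pramef17 rose by 1.98 (0.53 to 1.00 CPM in WT, 3.19 and 3.04 CPM in P7OE). Pramef8 fell by 0.96, and Pramel1, Pramef12 and Pramel3 were not called. The calls of Pramef17 and Pramef8 ended with either P7OE library left out (edgeR adjusted p 0.0697 to 0.132).

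Of the 20161 tested genes, 4003 (19.9%) were called, 2209 higher (11%) and 1794 lower (8.9%). Changes of at least 2-fold made up 1075 of the higher calls (5.33% of tested genes) and 640 of the lower calls (3.17%). Libraries of the groups did not overlap for 4350 genes with P7OE higher (21.6%) and 4043 with P7OE lower (20.1%). The median over all tested genes was −0.01. Which WT pair served as the control bore on the number of calls. With WT replicates 3 and 4 alone 3068 genes rose and 3056 fell, and with WT replicates 5 and 6 alone 2282 rose and 2295 fell. Against each pair and against all 4, 1528 genes were called higher and 1361 lower. With only the 6 WT and P7OE libraries in the fit, 1597 rose and 1098 fell. Without P7OE replicate 1 the counts were 1061 and 658, and without P7OE replicate 2 they were 1010 and 467. In those last 2 fits P7OE has 1 library, which is assumed to vary like the other groups, and the genes named below that lose their call there are given in the same paragraph.

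**Figure D1:**
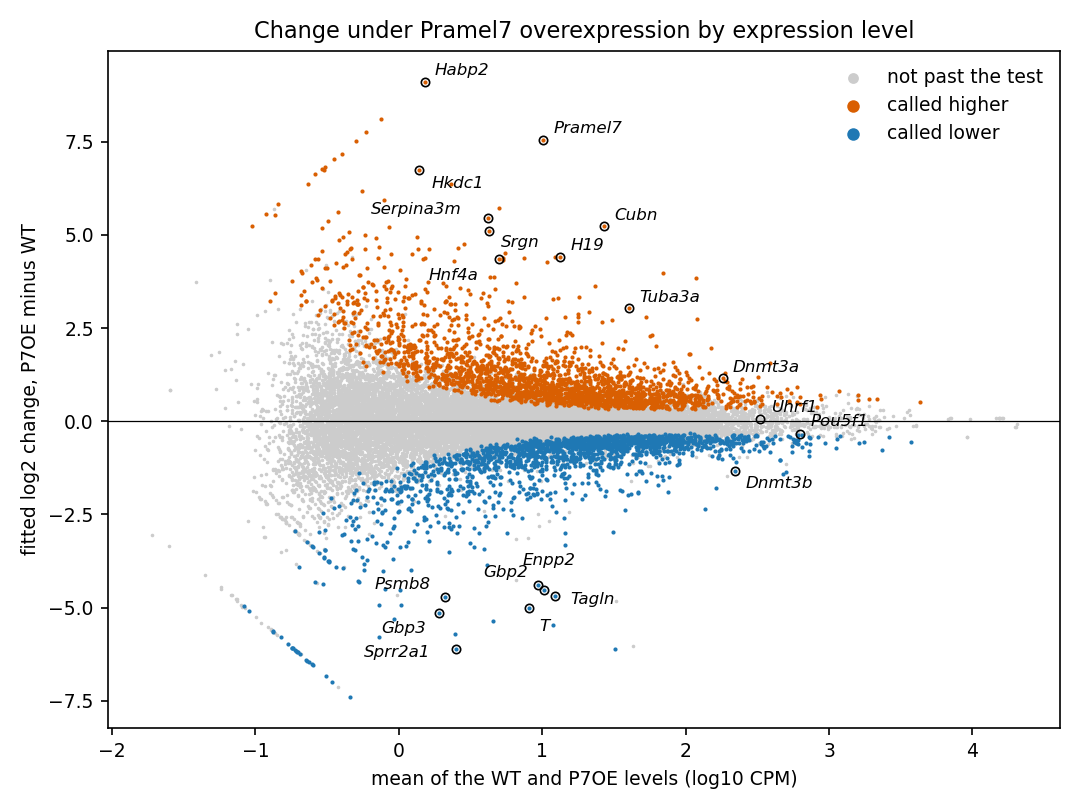
Each point is a tested gene, with its mean level on the horizontal axis (log10 CPM) and its fitted log2 change in P7OE against WT on the vertical axis. Called genes are coloured, and diagonal rows of points at low levels are genes with 0 counts in all libraries of a group. Pramel7 (7.56) lies above Cubn (5.23), and Tagln (−4.68) and T (−5.01) lie far below 0.

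Among the genes that rose most, Cubn, which encodes the endocytic receptor cubilin, stood at 0.757, 0.482, 1.92 and 2.50 CPM in WT and at 47.4 and 57.9 CPM in P7OE (log2 change 5.23, SE 0.42, adjusted p 5.54e-06). Both P7OE libraries lay far above every WT library. Srgn, the proteoglycan serglycin, went from 0.161 to 0.318 CPM in WT to 8.52 and 7.91 CPM (5.11, SE 0.34). Habp2, a plasma serine protease, had 0 counts in all 4 WT libraries and 3.07 and 2.98 CPM in P7OE, at least 100-fold higher. Hkdc1, a hexokinase family member, had counts in only 1 WT library, and its ratio of P7OE to WT was 136 (95% interval 36.9 to 1136, counting error only). Klb, the coreceptor beta-Klotho, reached 10.7 and 8.82 CPM against at most 0.379 CPM in WT (5.73, SE 0.49). Serpina3m, a serine protease inhibitor, reached 7.65 and 8.70 CPM against at most 0.265 CPM (5.45, SE 0.30). Nostrin, which binds nitric oxide synthase, rose by 6.36, the X-linked testis gene Tex13b by 4.94 and the imprinted noncoding RNA Peg13 by 4.65. With 1 library left out Klb stood at 6.39 (without WT replicate 3) and Tex13b at 5.55 (without WT replicate 6) and 4.29 (without P7OE replicate 1). Tex13b was called higher in P7KO against the same WT libraries as well (4.14), at 1.48 and 1.57 CPM, and stood at 1.29 and 1.39 CPM in DuxKO. Its higher level is thus not particular to overexpression. The other genes named in this paragraph were not called in P7KO.

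Among the genes that fell most were the primitive streak factor T, guanylate-binding proteins and a smooth muscle gene. T (brachyury) stood at 19, 16.8, 16.7 and 9.96 CPM in WT and at 0.516 and 0.426 CPM in P7OE (log2 change −5.01, SE 0.36, adjusted p 2.82e-06). Enpp2, which encodes the lysophosphatidic acid producing enzyme autotaxin, was even across WT at 17.8 to 20.8 CPM and fell to 0.710 and 1.03 CPM (−4.53, SE 0.29). Tagln, the actin-binding protein transgelin of smooth muscle, was at 35.1 and 35.8 CPM in WT replicates 3 and 4, at 14.4 and 9.92 CPM in replicates 5 and 6, and at 0.807 and 1.10 CPM in P7OE (−4.68, SE 0.57). The WT pairs thus differed from each other as well, and both lay above P7OE. The overlapping locus Gm48529, named after its values were seen, had 90.8% to 98.3% of the Tagln count in the WT libraries. In P7OE it had 12 and 12 counts against 25 and 18 for Tagln. The 2 are thus not independent measurements. Gbp2b (−5.35), Gbp3 (−5.14), Gbp2 (−4.41) and the immunoproteasome subunit Psmb8 (−4.72) fell as well. Sprr2a1 and Sprr2a2, near-identical copies of a small proline-rich gene that share most of their counts, stood at 3.96 to 6.16 CPM and at 3.68 to 6.0 CPM in WT. In P7OE, Sprr2a1 was at 0 and 0.183 CPM, and its ratio to WT was 0.0128 (95% interval 0.00262 to 0.0375). The microRNA locus Mir6381 had a ratio of 0.0309 (0.00633 to 0.0917), but it lies inside Gbp2, so its counts may be reads of that gene. Gbp3 had 5 and 0 counts in P7OE, so its fitted change depends on the prior count and was −9.38 without P7OE replicate 1. T (−3.67), Gbp2b (−3.99), Psmb8 (−4.11), Gbp2 (−4.23) and Tagln (−2.75) were also called lower in P7KO against the same WT libraries. So were Enpp2, Gbp3, Sprr2a1, Sprr2a2 and Mir6381. The lower levels of these genes are thus not particular to overexpression. DuxKO libraries held T at 2.91 and 1.89 CPM, below all WT libraries, but Tagln at 39.8 and 37.2 CPM, above them.

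**Figure D2:**
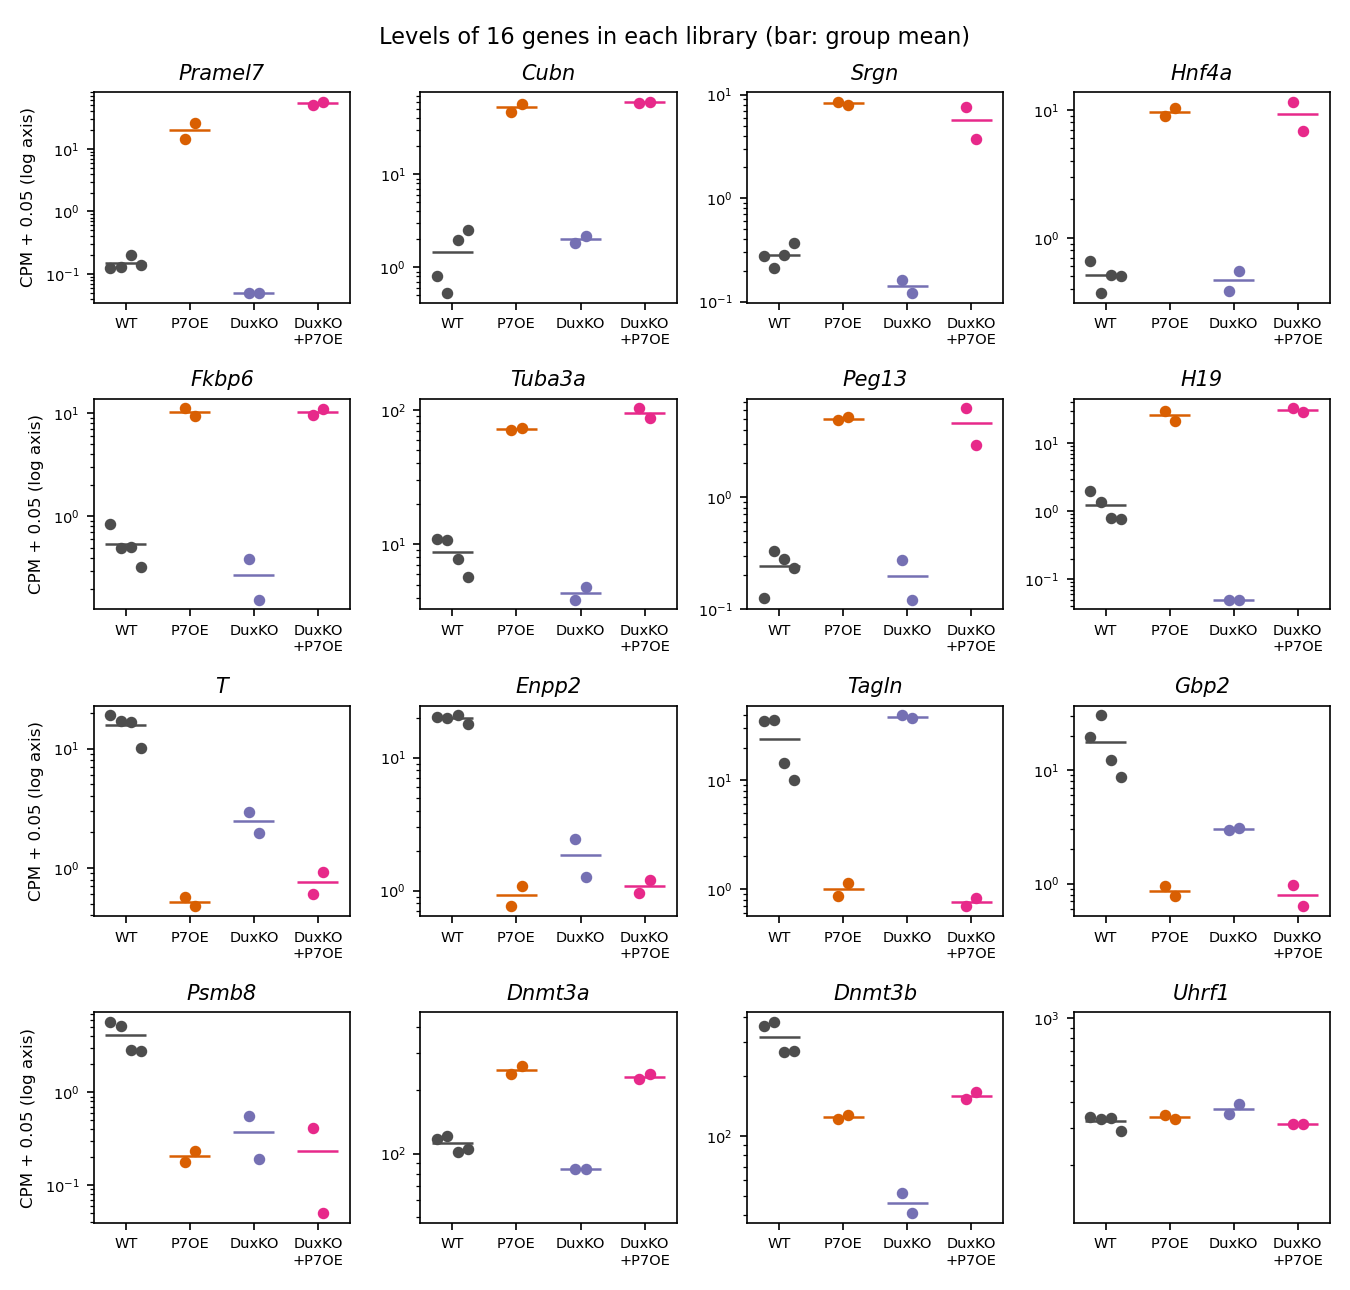
Levels of 16 genes in each library of WT, P7OE, DuxKO and DuxKO_P7OE, on a log axis of CPM with 0.05 added so that 0 can be drawn; points are libraries and bars are group means. Cubn, Hnf4a, Fkbp6 and Tuba3a are higher in both overexpression groups than in their own controls, while Dnmt3b is lower in P7OE than in WT and higher in DuxKO_P7OE than in DuxKO.

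Primitive endoderm is the extraembryonic layer that forms beside the epiblast, under transcription factors of the Gata, Sox and Hnf families, and lays down a basement membrane of laminin and type IV collagen. Of 21 tested genes on its list, 17 rose, 2 fell and the median log2 change was 2.78. The transcription factors Gata6 (0.379 to 1.09 CPM in WT, 6.61 and 8.34 CPM in P7OE, log2 change 3.17), Sox17 (0.530 to 1.18 CPM, then 9.87 and 7.30 CPM, 3.54) and Gata4 (2.30) all rose, and were named after their values were seen. Hnf4a, the nuclear receptor of visceral endoderm and liver, stood at 0.606, 0.321, 0.462 and 0.455 CPM in WT and at 8.91 and 10.2 CPM in P7OE (4.35, SE 0.30, adjusted p 1.59e-06). Also higher was the membrane signal receptor Pdgfra (3.86), and the endocytic adaptor Dab2 rose from 2.54 to 4.38 CPM to 40.4 and 45.8 CPM (3.64), both likewise named after their values were seen. The 2 that fell were Fst, the activin antagonist follistatin (−1.58), and the lipoprotein gene Apoe (−0.79). Lamc1 and Cited1 were not called, and the markers Afp and Ttr had too few counts to be tested. Summed over the 23 markers, primitive endoderm levels were 769 to 1111 CPM in WT and 1747 and 1825 CPM in P7OE. In bulk RNA, more cells of a type and more RNA per cell cannot be told apart. With either P7OE library left out, 15 members rose and 2 fell. Of the 17 that rose, 15 were called against each WT pair, and all 17 also rose in DuxKO_P7OE against DuxKO, where 2339 tested genes (11.6%) rose and 1981 (9.83%) fell.

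Promoters of a few genes that rose are shown to make their CpG content visible, since CpG is the site of the methylation that UHRF1 maintains. Each is RefSeq sequence of GRCm38.p6, 250 bases before to 50 bases after a start, written 5′ to 3′ on the strand of the gene with every CG in capitals. For Tuba3a and Cubn that start is the outer end of the gene. For Xlr4a it lies a little inside the gene, which spans chrX:73074343-73082527. The whole Fkbp6 window lies inside its gene, which spans chr5:135291704-135351809, so it does not show the outer end of Fkbp6. Fkbp6 and Tuba3a stand for the germline genes, Xlr4a for the X-linked testis genes and Cubn for the endoderm genes.
Fkbp6 (chr5:135349995-135350294, minus strand): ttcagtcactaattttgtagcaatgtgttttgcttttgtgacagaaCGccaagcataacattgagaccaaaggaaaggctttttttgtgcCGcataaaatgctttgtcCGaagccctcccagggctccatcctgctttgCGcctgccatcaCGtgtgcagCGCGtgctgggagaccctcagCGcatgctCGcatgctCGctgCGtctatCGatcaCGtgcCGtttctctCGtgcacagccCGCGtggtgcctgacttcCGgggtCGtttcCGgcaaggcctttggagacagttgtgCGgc
Tuba3a (chr6:125286032-125286331, minus strand): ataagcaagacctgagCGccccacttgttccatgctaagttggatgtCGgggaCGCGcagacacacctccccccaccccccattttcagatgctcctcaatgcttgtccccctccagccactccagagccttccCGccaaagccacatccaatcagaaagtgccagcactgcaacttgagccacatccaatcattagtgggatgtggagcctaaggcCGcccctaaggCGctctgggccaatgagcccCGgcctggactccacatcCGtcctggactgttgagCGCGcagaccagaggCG
Xlr4a (chrX:73082458-73082757, minus strand): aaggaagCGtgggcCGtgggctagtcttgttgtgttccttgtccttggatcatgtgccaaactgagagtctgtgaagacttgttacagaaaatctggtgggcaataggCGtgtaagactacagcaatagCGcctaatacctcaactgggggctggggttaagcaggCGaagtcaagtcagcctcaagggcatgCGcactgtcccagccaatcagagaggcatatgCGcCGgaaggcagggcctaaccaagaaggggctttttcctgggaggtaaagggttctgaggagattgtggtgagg
Cubn (chr2:13491827-13492126, minus strand): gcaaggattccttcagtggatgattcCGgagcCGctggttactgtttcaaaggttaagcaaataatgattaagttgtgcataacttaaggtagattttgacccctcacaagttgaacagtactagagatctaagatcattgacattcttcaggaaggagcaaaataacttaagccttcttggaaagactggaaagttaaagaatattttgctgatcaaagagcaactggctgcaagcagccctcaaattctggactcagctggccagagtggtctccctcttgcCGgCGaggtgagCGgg
The Fkbp6 window holds 21 CG, that of Tuba3a 12, that of Xlr4a 8 and that of Cubn 5. The median was 20 over the 12253 tested genes with a promoter in the table. It was 20 over all genes that rose and 19 over all that fell. It was 15 over genes that rose at least 2-fold and 14 over genes that fell at least 2-fold. Promoters of the germline genes that rose had a median of 20 CG (15 of 17 matched), those of the X-linked testis genes 8 (13 of 13), of the primitive endoderm genes 8 (11 of 17) and of the 2-cell genes 2 (11 of 21). The E-box CACGTG, which reads the same on both strands, was in 5 of the 15 germline promoters (33.3%) and in 9.95% of all tested promoters. TCCCGC, the core of the E2F6 motif searched on both strands, was in 8 of 15 (53.3%) and in 34.8%. Germline genes that did not rise were not counted as a set, so a link between these motifs and the rise was not tested. The Fkbp6 window holds CACGTG and that of Tuba3a holds TCCCGC.

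Germline genes are a classic group silenced by promoter methylation in somatic cells. Of 44 tested germline genes, 17 rose, 3 fell and the median was 0.76. Fkbp6, a partner of the piRNA machinery of the male germline, stood at 0.795, 0.442, 0.462 and 0.273 CPM in WT and at 11 and 9.25 CPM in P7OE (log2 change 4.33, SE 0.34, adjusted p 4.98e-06). Tuba3a, a testis alpha-tubulin, rose from 5.64 to 10.8 CPM to 70.2 and 73.3 CPM (3.04, SE 0.20), and its paralogue Tuba3b from 0.115 to 0.964 CPM to 4.07 and 4.87 CPM (3.14, SE 0.56). Reads of these paralogues may have been split between them. Asz1, a piRNA pathway gene, had a ratio of 18.8 (95% interval 4.51 to 167). Its call ended without P7OE replicate 1 (edgeR adjusted p 0.109) or 2 (0.169). Dazl, a germ cell RNA-binding protein, was at 0.454 to 1.36 CPM in WT and at 2.29 and 0.852 CPM in P7OE and was not called (0.89, adjusted p 0.244). The 3 that fell, named after their values were seen, were the synaptonemal complex gene Sycp3 (−2.32), Ccdc73 (−0.93) and the meiotic gene Tex15 (−0.69). Calls of Ccdc73 and Tex15 ended with either P7OE library left out and that of Sycp3 without P7OE replicate 1 (edgeR adjusted p from 0.0519 to 0.321). Without P7OE replicate 1, 10 of the list rose and 0 fell, and without P7OE replicate 2, 11 rose and 1 fell. Without Dux 22 rose and 3 fell, with 13 of the 17 among those that rose.

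On the X chromosome, genes of testis clusters rose in numbers. Of 26 tested X-linked testis genes, 13 rose and 1 fell, with a median of 2.72 (2.52 with genes at 0 in WT set to their lower bound). The count table holds 38 members of this list. The filter keeps a gene with enough counts in as few libraries as the smallest group holds. Members near 0 in WT could therefore pass it because an overexpression group was high, which can raise this share and median. Xlr4a, of the X-linked lymphocyte-regulated family, had 0 counts in all WT libraries and 0.903 and 1.10 CPM in P7OE, at least 32.1-fold higher. The ratio was 119 for Xlr5b (95% interval 20.6 to 4795), 24.4 for Xlr4b (7.70 to 124) and 20.9 for Xlr4c (6.51 to 107). These levels are low, and members of the family are so alike that counts may be split. In sum, 8 of 9 tested Xlr genes rose. Counts together over the 16 Xlr genes of the count table were 39, 33, 38 and 20 in WT against 362 and 165 in P7OE. For the ferritin-like Fthl17 genes, 5 of 6 tested rose, with 66, 34, 9 and 12 counts against 221 and 116 over the 9 in the count table. The gene that fell was the homeobox gene Rhox5 (−1.43), named after its value was seen. Without P7OE replicate 1 the list had 7 genes that rose, and without P7OE replicate 2 it had 5. Xlr4b lost its call in both cases (edgeR adjusted p 0.0576 and 0.124), and Xlr4c and Rhox5 without P7OE replicate 2 (0.0932 and 0.107). Without Dux, 18 of the list rose and 1 fell.

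Genes of the 2-cell-like state were higher in P7OE, from low starting levels. Of 27 tested 2-cell genes, 21 rose and 1 fell, with a median of 3.29. The count table holds 47 members of this list. Here too, members near 0 in WT could pass the filter because P7OE was high, which can raise this share and median. The Zscan4 genes, which encode zinc finger proteins that mark the state, rose in 9 of 9 tested cases. Their counts summed to 76, 42, 56 and 73 in WT and to 870 and 407 in P7OE. Zscan4c stood at 0.192 to 0.864 CPM in WT and at 4.32 and 3.83 CPM in P7OE (log2 change 3.13, SE 0.49, adjusted p 0.0013), and Zscan4f rose by 4.30. The deubiquitinase-like Usp17l genes rose in 5 of 5 tested cases, from 20, 29, 18 and 10 summed counts to 337 and 124. Usp17lc rose by 4.49, and BC061212 had a ratio of 27.9 (95% interval 8.89 to 141). Duxf3, the Dux gene itself, had 2, 1, 1 and 0 counts in WT and 17 and 1 in P7OE, too few to be tested, with nearly all of its P7OE counts in 1 library. Sprr2a1 was the list member that fell. In the Dux knockout the Zscan4 genes had 0 summed counts in both DuxKO_P7OE libraries, and the list had a median of 0.00, with 11 members at 0 in all 4 libraries. Only 1 of the 21 rose there. The list had 9 genes that rose without P7OE replicate 1 and 12 without P7OE replicate 2, and BC061212 lost its call in both cases (edgeR adjusted p 0.0844 and 0.0652). Counts within the Zscan4 and Usp17l families are uncertain, because the copies are near-identical.

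Genes of the methylation machinery moved in both directions. Uhrf1, the known substrate of PRAMEL7 at the protein level, was at 339, 330, 334 and 292 CPM in WT and at 347 and 332 CPM in P7OE (log2 change 0.07, SE 0.12, adjusted p 0.727). Its RNA ranges overlapped. Dnmt1 was at 244, 245, 363 and 297 CPM in WT and at 373 and 381 CPM in P7OE (0.39, SE 0.16, adjusted p 0.0959). Of 12 tested maintenance genes, 1 rose and 3 fell, with a median of −0.02, where 11% of all tested genes rose and 8.9% fell. The DNA ligase Lig1 rose by 0.71, while the remodeller Hells (−0.65), its partner Cdca7 (−0.50) and Dppa3, a maternal factor that keeps UHRF1 off chromatin (−1.91), fell. All 4 calls ended without P7OE replicate 2, and those of Lig1, Hells and Cdca7 also without P7OE replicate 1 (edgeR adjusted p from 0.0522 to 0.146). Against WT replicates 3 and 4 alone 4 maintenance genes rose, and against WT replicates 5 and 6 alone 5 fell.

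Dnmt3a, a de novo methyltransferase, rose from 117, 121, 102 and 105 CPM in WT to 239 and 261 CPM in P7OE (log2 change 1.17, SE 0.12, adjusted p 4.64e-05). Dnmt3b, the main de novo enzyme of primed cells, went the other way, from 361, 377, 264 and 269 CPM to 122 and 128 CPM (−1.35, SE 0.17, adjusted p 0.000197). In neither case did the groups overlap. Dnmt3c, a rodent enzyme of the male germline, fell by 1.79, a call that ended without P7OE replicate 1 (edgeR adjusted p 0.100) or 2 (0.0612). The cofactor Dnmt3l was at 171 to 230 CPM in WT and at 243 and 241 CPM in P7OE (0.26, adjusted p 0.21). With Dux absent all 4 de novo genes rose: Dnmt3b from 51.5 and 40.8 CPM to 154 and 166 CPM (1.80) and Dnmt3l from 28.1 and 28.3 CPM to 207 and 218 CPM (2.91), with Dnmt3a (1.46) and Dnmt3c (1.72). The difference between the backgrounds was −3.14 for Dnmt3b (adjusted p 3.19e-05) and −2.65 for Dnmt3l (3.20e-05). For Dnmt3a it was −0.29 (adjusted p 0.415). Both DuxKO libraries lay below all WT libraries for Dnmt3b and Dnmt3l, and the 4 overexpression libraries ran from 122 to 166 CPM and from 207 to 243 CPM. In P7KO, set against the same WT libraries, Dnmt3a was at 29.6 and 37.8 CPM and Dnmt3b at 77.2 and 76.1 CPM.

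Among 12 tested genes of TET oxidation and base excision repair, 3 rose and 2 fell, with a median of −0.09. Tet3 rose from 13 to 13.4 CPM to 24.0 and 28.1 CPM (log2 change 0.98), and Tet2 from 83.9 to 151 CPM to 211 and 224 CPM (0.96). Tet1 was at 254 and 264 CPM in WT replicates 3 and 4, at 645 and 853 CPM in replicates 5 and 6, and at 482 and 521 CPM in P7OE (−0.01, adjusted p 0.993). Against replicates 3 and 4 alone its change was 0.91 (adjusted p 3.58e-05), so the value of Tet1 depends on the WT pair. The glycosylase gene Neil3 rose by 0.85, and its call ended without P7OE replicate 1 (edgeR adjusted p 0.0717) or 2 (0.237). The stress-response gene Gadd45b fell by 1.90, as did its relative Gadd45a (−0.69), named after its value was seen, whose call ended with either P7OE library left out (edgeR adjusted p 0.143 and 0.0943). Of 16 tested genes of the CUL2 ligase, the enzyme that PRAMEL7 serves, 1 rose and 4 fell, with a median of −0.16. Beside this list and that of TET and base excision, the shares over all tested genes were 11% higher and 8.9% lower. The scaffold Cul2 rose by 0.51. The substrate adaptors Vhl (−0.75) and Fem1c (−0.57), the modifier Nedd8 (−0.46) and the RING subunit Rbx1 (−0.37, named after its value was seen) fell. Without P7OE replicate 2 no ligase gene was called, with edgeR adjusted p from 0.0958 to 0.311 for Cul2, Vhl, Fem1c, Nedd8 and Rbx1, and without P7OE replicate 1 only 2 fell, Rbx1 not among them (0.15).

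The central pluripotency factors were not called against all 4 WT libraries. Pou5f1 stood at 631, 646, 815 and 717 CPM in WT and at 595 and 515 CPM in P7OE (log2 change −0.34, adjusted p 0.103), and Nanog at 130 to 162 CPM and at 135 and 104 CPM (−0.28, adjusted p 0.183). Against WT replicates 5 and 6 alone both were called lower, Pou5f1 at −0.49 (edgeR adjusted p 0.0195) and Nanog at −0.42 (0.0353), and against replicates 3 and 4 alone neither was (0.109 and 0.284). Of 25 tested naive and core pluripotency genes, 6 rose and 3 fell (11% and 8.9% over all tested genes), with a median of −0.04. Those that rose included transcription factors of the naive state. Tbx3 went from 31.5, 31.1, 49.4 and 50.1 CPM to 121 and 123 CPM (1.59, SE 0.19), Klf4 from 28.9 to 34.8 CPM to 71.5 and 68.4 CPM (1.16, SE 0.12) and Gbx2 from 37.1 to 63.2 CPM to 98.3 and 99.4 CPM (0.99). Lower were the RNA-binding protein Lin28a (−0.81) and, named after their values were seen, Socs3 (−0.68) and Fgf4 (−0.52). With WT replicates 3 and 4 alone 10 of the list rose and 3 fell, and with WT replicates 5 and 6 alone 4 rose and 10 fell. With either P7OE library left out, 3 rose and 1 fell, and Socs3 and Fgf4 were not called (edgeR adjusted p from 0.0563 to 0.233). None of the 6 genes that rose also rose in the Dux knockout. Of the Dppa genes, Dppa2 rose by 0.43 and Dppa3 fell, a call that ended without P7OE replicate 2. Dppa4 and Dppa5a were not called. The call of Dppa2 ended with either P7OE library left out (edgeR adjusted p 0.16 and 0.179).

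Of 18 tested formative and primed genes, which mark the later epiblast, 2 rose, 6 fell and 10 were not called, with a median of −0.45. Their summed level was 800 to 1029 CPM in WT and 992 and 1012 CPM in P7OE, within the WT range. The epiblast growth factor Fgf5 fell from 18.2, 15.1, 10.7 and 8.46 CPM to 3.16 and 3.29 CPM (log2 change −2.03, SE 0.29), and the factors Pou3f1 (−1.38) and Nkx1-2 (−2.87) fell too. Etv4, an ETS factor downstream of FGF signalling, rose by 1.17, and Tcf15, named after its value was seen, by 0.54, a call that ended with either P7OE library left out (edgeR adjusted p 0.0609 and 0.12). Among 14 tested germ layer genes 8 fell and 2 rose, with a median of −1.56. Besides T, the streak ligand Wnt3 (−3.51) and the homeobox genes Evx1 (−2.69) and Msx1 (−2.34) fell. Wnt3 had 16 and 2 counts in P7OE, and its change was −5.03 without P7OE replicate 1. The neural factor Sox1 rose from 3.33 to 7.19 CPM to 35.7 and 38.9 CPM (2.94, SE 0.23), and the mesodermal receptor Kdr, named after its value was seen, by 1.83, which was not called without P7OE replicate 1 (edgeR adjusted p 0.119). With either P7OE library left out 5 of the germ layer genes fell. Of 19 tested trophoblast genes, 10 fell and 0 rose, with a median of −1.01. Cdx2, the trophectoderm factor that is also active in posterior mesoderm (−2.35), and the ligand Wnt7b (−2.32) fell. The keratins Krt8 (−1.72) and Krt7 (−1.79) are on the epithelial list too. In P7KO against the same WT libraries, 9 of the 19 trophoblast genes fell and 2 rose (median −0.92). There 8 of the 18 formative and primed genes fell and 1 rose, and 5 of the 14 germ layer genes fell and 1 rose. Over all tested genes, 5.55% fell and 3.93% rose in P7KO, so lower levels in these lists are not particular to overexpression. In the fits without P7OE replicate 1 and replicate 2, 7 and 6 of the trophoblast genes fell, and Krt7 was not called in either (edgeR adjusted p 0.110 and 0.0907).

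Imprinted genes, whose methylation marks are kept through replication, moved in both directions. Of 43 tested, 10 rose and 6 fell (11% and 8.9% over all tested genes), with a median of 0.29. H19, a noncoding RNA expressed from the maternal allele, stood at 1.93, 1.33, 0.731 and 0.728 CPM in WT and at 29.8 and 21.1 CPM in P7OE (log2 change 4.42, SE 0.30, adjusted p 3.20e-06). Its neighbour Igf2, the paternally expressed growth factor, fell from 12.4 to 15.8 CPM to 3.71 and 3.89 CPM (−1.94). Grb10, an adaptor that restrains growth, fell from 220 to 249 CPM to 47.2 and 42.8 CPM (−2.35, adjusted p 5.27e-07). Igf2 and Grb10 were named after their values were seen. Peg13 rose from 0.0757 to 0.281 CPM to 4.78 and 5.11 CPM, the growth suppressor Plagl1 from 0.908 to 1.96 CPM to 9.65 and 12.5 CPM (3.20) and Nap1l5 by 2.43. Reads were not separated by allele, so these are sums over both. The call of Nap1l5 ended with either P7OE library left out (edgeR adjusted p 0.0868 and 0.101), and its change was 3.08 without WT replicate 6. In those fits 6 and 5 of the list rose and 3 fell. In the Dux knockout, H19 was at 0 counts in both DuxKO libraries and at 32.3 and 28.5 CPM in DuxKO_P7OE, at least 466-fold higher, and Grb10 fell by 3.54.

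Interferon and antigen presentation genes were lower, from modest levels. Of 30 tested, 14 fell and 1 rose, with a median of −0.92. Psmb8 stood at 5.68, 5.06, 2.77 and 2.73 CPM in WT and at 0.129 and 0.183 CPM in P7OE (log2 change −4.72, SE 0.72, adjusted p 0.000691). Gbp2 was at 19.7, 30.5, 12.2 and 8.6 CPM in WT and at 0.903 and 0.730 CPM in P7OE (−4.41, SE 0.51). Guanylate-binding proteins are interferon-induced GTPases, and 4 of 6 tested Gbp genes fell. Gbp7 had a ratio of 0.0408 (95% interval 0.00832 to 0.121), and Isg15, a ubiquitin-like modifier, had 0 counts in both P7OE libraries, at least 7.48-fold lower. The call of Isg15 ended with either P7OE library left out (edgeR adjusted p 0.182 and 0.138). Those fits left 7 and 5 of the list lower. In the Dux knockout 3 rose and 3 fell, with a median of 0.33, and DuxKO cells held these genes at low levels to begin with, Psmb8 at 0.503 and 0.143 CPM. In P7KO against the same WT libraries, where 1911 tested genes were called (9.48%), 792 higher (3.93%) and 1119 lower (5.55%), 13 of the 30 fell.

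Contractile and epithelial genes also fell. Of 25 tested targets of the actin-regulated factors SRF and YAP, 13 fell and 2 rose, with a median of −0.57. Besides Tagln, the matrix protein Thbs1 fell from 19 to 26.4 CPM to 4.84 and 6.15 CPM (log2 change −2.11), and the smooth muscle calponin Cnn1 (−2.83) and the myosin light chain Myl9 (−3.33) fell too. The intermediate filament gene Vim (1.11) and the annexin Anxa1 (1.00) rose, and were named after their values were seen. Cnn1, Myl9 and Anxa1 lost their calls without P7OE replicate 1 (edgeR adjusted p 0.0775, 0.124 and 0.405), where 8 of the list fell. Cnn1 then stood at −2.19 and Myl9 at −2.50, and without P7OE replicate 2 they stood at −3.57 and −4.32. Of 28 tested epithelial adhesion genes, 16 fell and 3 rose, with a median of −0.80. Cldn7, a tight junction claudin, went from 7.38, 7.67, 3.04 and 4.96 CPM to 1.71 and 1.22 CPM (−1.95) and the laminin chain Lamb3 fell by 2.45. Misp (2.03), an actin-bundling protein, rose, as did Cldn3 (1.02) and Spint1 (0.50), both named after their values were seen. Lamb3, Misp, Cldn3 and Spint1 lost their calls with either P7OE library left out and Cldn7 without P7OE replicate 2 (edgeR adjusted p from 0.0740 to 0.228), and 9 and 7 of the list then fell. Here the backgrounds went apart: in the Dux knockout 13 of these genes rose and 3 fell, with a median of 1.00, and 8 of the 16 that had fallen rose. In P7KO 16 of the contractile and 17 of the epithelial genes fell against the same WT libraries.

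Of the 9 fibroblast markers that could be tested, 5 rose and 0 fell, with a median of 0.76. Col5a2, a fibrillar collagen chain, went from 0.231 to 0.844 CPM to 3.26 and 2.56 CPM (log2 change 2.28), and the mesenchymal factor Twist1 rose by 1.2, Loxl1 by 1.09, Fbn1 by 0.95 and Fbln1, named after its value was seen, by 0.76. The collagens Col1a1 and Col6a1, Thy1 and Pdgfrb were not called. The calls of Loxl1 and Fbn1 ended with either P7OE library left out and those of Twist1 and Fbln1 without P7OE replicate 1 (edgeR adjusted p from 0.0574 to 0.235), leaving 1 and 3 of the list higher. Their part in the other results was not tested.

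**Figure D3:**
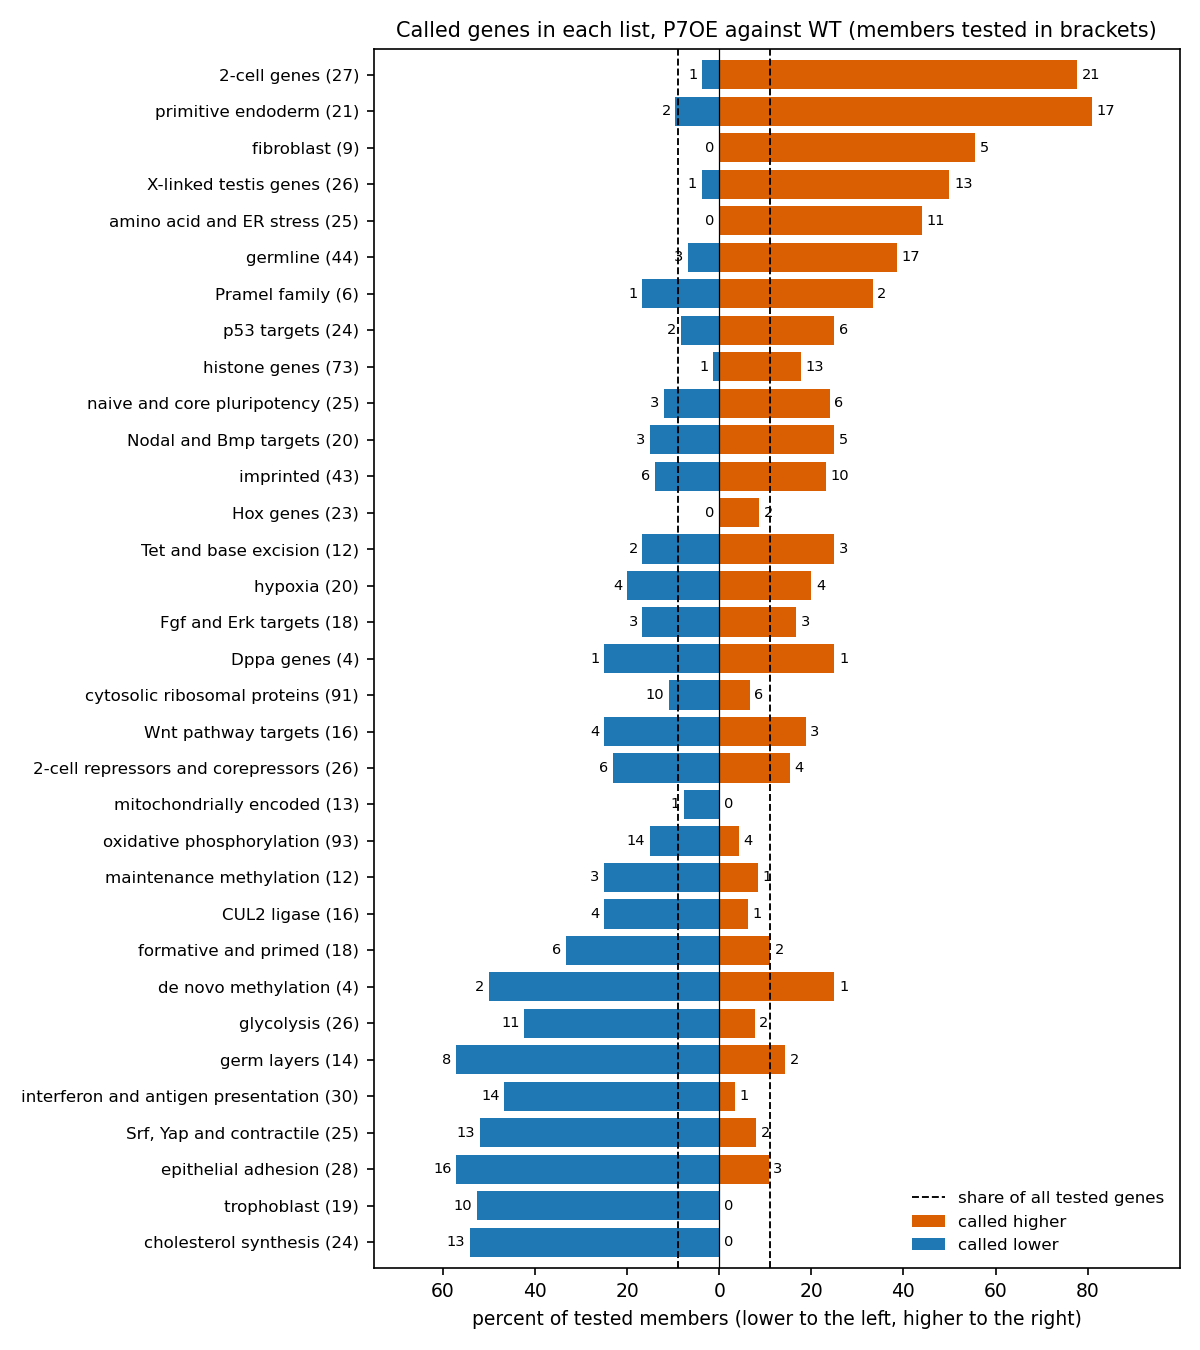
For each gene list, bars give the percent of its tested members that were called lower (left) or higher (right) in P7OE against WT, with the number of members beside each bar. Dashed lines mark the shares over all tested genes, 8.9% lower and 11% higher. The lists of primitive endoderm (17 of 21 higher) and 2-cell genes (21 of 27 higher) reach far past the line on the right, and cholesterol synthesis (13 of 24 lower) and epithelial adhesion (16 of 28 lower) on the left.

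Many genes of sterol and sugar metabolism fell. Of 24 tested genes of cholesterol synthesis and uptake, 13 fell and 0 rose, with a median of −0.66. The isomerase Idi1 fell from 68.6, 78.1, 91.1 and 81.1 CPM in WT to 27.4 and 25.1 CPM in P7OE (log2 change −1.60, SE 0.14, adjusted p 1.07e-05). In the fits without P7OE replicate 1 and replicate 2, 9 and 4 genes of the list fell. Dux knockout cells had 13 that fell and 0 that rose (median −0.63), and 9 of the 13 were the same genes. For glycolysis 11 of 26 fell and 2 rose, with a median of −0.44. The kinase Pgk1 fell from 541 to 683 CPM to 306 and 286 CPM (−1.04), and the lactate dehydrogenases Ldhb (−1.09) and Ldha (−0.71) and the brain aldolase Aldoc (−1.73) fell too. The muscle enolase Eno3 rose by 1.27 and Pdk1, named after its value was seen, by 0.51. Ldha, Aldoc and Pdk1 lost their calls without P7OE replicate 1 (edgeR adjusted p 0.0848, 0.0871 and 0.0966), and Ldha also without P7OE replicate 2 (0.127), where 5 and 3 of the list fell. Aldoc stood at −1.02 and −2.71 in these fits.

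Hypoxia genes were split, with 4 of 20 higher, 4 lower and a median of −0.12. The shares over all tested genes were 11% higher and 8.9% lower. Vegfa rose by 0.84, while Pfkfb3 (−1.03) and Ndrg1 (−0.85) fell along with Ldha. Of the others P4ha1 (0.67), Pdk1 and Egln1 (0.42) rose and Higd1a (−0.42) fell, named after their values were seen. Calls of Vegfa, Pfkfb3, Ndrg1, Ldha, Egln1 and Higd1a ended with either P7OE library left out (edgeR adjusted p from 0.0504 to 0.258), and those of P4ha1 (0.101) and Pdk1 (0.0966) without P7OE replicate 1. Of 93 tested nuclear genes of oxidative phosphorylation, 14 fell and 4 rose, with a median of −0.19. The ATP synthase subunits Atp5l (−0.92) and Atp5md (−0.89) fell. The cytochrome oxidase isoforms of testis Cox7b2 (4.06) and Cox6b2 (1.15) rose, as did Cox6a1 (0.73) and Ndufa10 (0.53), named after their values were seen. The lower count was 34 against WT replicates 3 and 4 alone, 22 without WT replicate 6, 8 in the fit of WT and P7OE only, and 4 and 3 with a P7OE library left out, and neither Atp5md (edgeR adjusted p 0.0610 and 0.260) nor Ndufa10 (0.113 and 0.234) was then called. Of 13 mitochondrially encoded genes, mt-Atp6 fell (−0.58), and it was not called with either P7OE library left out (edgeR adjusted p 0.261 and 0.0694). Against WT replicates 3 and 4 alone 6 of these 13 rose and against WT replicates 5 and 6 alone 9 fell, so their direction depends on the WT pair.

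Genes of the amino acid and endoplasmic reticulum stress response rose in 11 of 25 tested cases and fell in 0, with a median of 0.58. The transcription factor Atf5 went from 24.0 to 27.1 CPM to 66.5 and 86.6 CPM (log2 change 1.56, SE 0.14, adjusted p 1.03e-05). Xbp1, the factor of the unfolded protein response, went from 23.4, 24.0, 14.9 and 22.7 CPM to 51.7 and 45.9 CPM (1.2, SE 0.17). Vldlr rose by 1.35 and Herpud1, of endoplasmic reticulum associated degradation, by 0.93. With either P7OE library left out 9 of the list rose. Of 24 tested p53 targets, 6 rose and 2 fell (11% and 8.9% over all tested genes), with a median of 0.29. The stress cytokine Gdf15 rose from 1.15 to 2.89 CPM to 11.6 and 12 CPM (2.56, SE 0.29), the noncoding RNA Trp53cor1 by 1.59 and the kinase Plk3 by 1.17. Perp (−0.99), a desmosomal protein, and Ptpn14 (−0.69, named after its value was seen) fell. With a P7OE library left out 2 rose and 1 fell. Trp53cor1 lost its call in both fits (edgeR adjusted p 0.0644 and 0.0638), Perp without P7OE replicate 2 (0.0504) and Ptpn14 without P7OE replicate 1 (0.131).

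Targets and components of the signalling pathways moved in both directions. Over all tested genes 11% rose and 8.9% fell. For WNT, 3 of 16 rose and 4 fell (median 0.21). The direct target Sp5 fell from 5.70 to 9.01 CPM to 0.355 and 0.791 CPM (log2 change −3.85, SE 0.41), together with T, Cdx2 and Ccnd1 (−0.52). The secreted antagonist Dkk1 rose from 0.308 to 0.562 CPM to 3.90 and 3.65 CPM (3.21), with Nkd1 (1.19) and Kremen1 (0.48). For Nodal and BMP, 5 of 20 rose and 3 fell (median −0.00). The ligand Bmp4 rose by 1.05 and the Nodal antagonist Lefty2 by 0.95, with Inhbb (0.89), Nodal (0.60) and Smad7 (0.42), and the BMP target Msx1 fell from 7.15 to 9.58 CPM to 1.94 and 1.52 CPM, with Fst and Smad6 (−0.70). For FGF and ERK, 3 of 18 rose and 3 fell (median −0.12). The immediate early factor Egr1 fell by 1.56, with Spry1 (−0.98) and Junb (−0.85), while Phlda1 (1.33), Spred2 (1.00) and Etv4 rose. Ccnd1, Nkd1, Kremen1, Inhbb, Nodal, Smad7, Smad6, Spry1 and Junb were named after their values were seen. Phlda1 was not called with either P7OE library left out (edgeR adjusted p 0.126 and 0.197), nor were Ccnd1, Nkd1, Kremen1, Nodal and Smad7 (0.0570 to 0.2). Spred2 (0.108), Junb (0.0551), Spry1 (0.0685) and Smad6 (0.423) were not called without P7OE replicate 2. The change of Phlda1 was 1.96 without WT replicate 6.

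Of 26 repressors of the 2-cell state and corepressors, 4 rose and 6 fell, with a median of −0.27. Over all tested genes the shares were 11% and 8.9%. The repressors of epithelial genes Zeb2 (1.65 to 3.41 CPM in WT, 7.94 and 8.34 CPM in P7OE, log2 change 1.61) and Zeb1 (4.96 to 6.73 CPM, then 16.7 and 14.8 CPM, 1.49) rose. Ctbp1 rose by 0.67, named after its value was seen, and lies on chromosome 5, whose genes as a whole stood higher. Its paralogue Ctbp2 was among the lower genes (−0.36), also named after its value was seen. Members of the noncanonical Polycomb complex, Pcgf6 (−0.79) and E2f6 (−0.69), fell. Without P7OE replicate 1 or 2, 1 and 0 of the list fell. Pcgf6 and Ctbp2 lost their calls in both fits and E2f6 without P7OE replicate 2 (edgeR adjusted p from 0.0530 to 0.304). Where 11% of all tested genes rose, 2 of 23 tested Hox genes did, Hoxa4 (2.99) and Hoxd1 (1.88), both from under 1 CPM in WT. Neither was called with a P7OE library left out (edgeR adjusted p from 0.0633 to 0.315), and Hoxa4 stood at 3.95 without WT replicate 3.

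Of 73 tested histone genes, 13 rose and 1 fell, with a median of 0.32. The testis linker histone H1f6 went from 14.8, 13.5, 5.31 and 5.37 CPM to 35.2 and 49.3 CPM (log2 change 2.11), and the replacement linker histone H1f0 rose by 1.59, H3f4 by 1.54 and H2bc9 by 1.18. The variant H2az1 (−0.50, named after its value was seen) fell, a call that ended with either P7OE library left out (edgeR adjusted p 0.0623 and 0.311). The higher count was 37 against WT replicates 5 and 6 alone, 26 with no filter on low counts and 5 without P7OE replicate 2. In the Dux knockout 2 rose and 9 fell. Of 91 ribosomal protein genes, 6 rose and 10 fell, with a median of −0.14, where 11% of all tested genes rose and 8.9% fell. Rpl39l, a paralogue used in the male germline, rose from 7.23, 5.79, 7.62 and 7.69 CPM to 44.8 and 45.8 CPM (2.68, SE 0.14, adjusted p 2.94e-07). Rpl6l rose by 0.88 and Rpl29 by 0.78, and Rps27l fell by 0.64. The lower count of the list was 40 against WT replicates 3 and 4 alone and 24 without WT replicate 6, and 1 and 0 with a P7OE library left out. Without P7OE replicate 2, Rpl29 (edgeR adjusted p 0.208) and Rps27l (0.231) were not called.

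Genes of chromosome 5 stood higher in P7OE over most of the chromosome. Over the 699 genes of chromosome 5 whose log2 CPM averaged 2 or more, the median log2 difference from the WT mean was 0.44 in P7OE replicate 1 and 0.42 in replicate 2, and 84.1% of the genes had a fitted change above 0. In the 11 bins of 10 Mb with at least 20 genes the median ran from 0.26 to 0.57, and over all 16 bins 13 were above 0.2. Those under it held 5, 18 and 9 genes (medians 0.029, 0.19 and 0.12). DuxKO_P7OE showed 0.38 and 0.36. Of 1080 tested genes of chromosome 5, 370 rose (34.3%) and 37 fell (3.43%), against 11% and 8.9% over all tested genes. Chromosome 8 stood at 0.18 and 0.16 in P7OE, with 1 of 12 bins of at least 20 genes above 0.2. It stood at 0.33 and 0.34 in DuxKO, at 0.030 and 0.033 in DuxKO_P7OE, and at 0.19 and 0.21 in P7KO. The median fitted change in P7OE ran from −0.24 to 0.05 over the other 18 chromosomes, and X was the lowest. On X, 59 of 650 tested genes rose (9.08%) and 115 fell (17.7%). In DuxKO_P7OE chromosome 11 stood at 0.256 and 0.262, where P7OE was at −0.01 in both libraries. Chromosome 15 stood at 0.105 and 0.126 in DuxKO and at 0.114 and 0.132 in P7KO. DNA copy number was not analysed here. Of the genes named above, Klb, Fkbp6, Pdgfra, Tbx3, Kdr, Cldn3, Ctbp1, Cox6a1 and Cox7b2, which rose, and Fgf5, Cdx2 and Msx1, which fell, lie on chromosome 5. With all genes of chromosome 5 left out, 1839 genes rose and 1757 fell, a choice made after seeing the data.

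**Figure D4:**
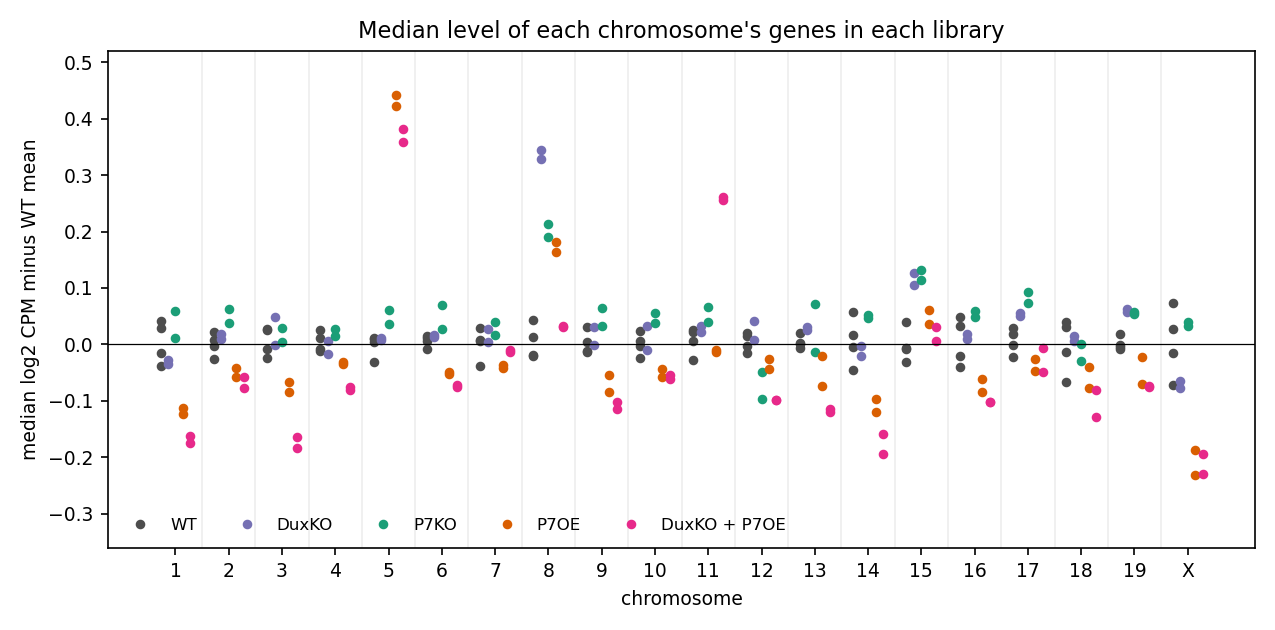
Median log2 CPM minus the WT mean (vertical axis) for the genes of each chromosome (horizontal axis), with 1 point per library, over genes whose log2 CPM averaged 2 or more. On chromosome 5 both P7OE libraries (0.44 and 0.42) and both DuxKO_P7OE libraries (0.38 and 0.36) lie above the rest, on chromosome 11 both DuxKO_P7OE libraries (0.256 and 0.262), and on chromosome 8 both DuxKO libraries (0.33 and 0.34) lie highest.

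Overexpression in the Dux knockout used other libraries for both arms, and Pramel7 was at a higher level there. Of the 2209 genes that rose in P7OE, 939 also rose in DuxKO_P7OE against DuxKO, which is 42.5% of the first list and 40.1% of the second, where 11.6% of all tested genes rose in the Dux knockout. Of the 1794 that fell, 568 also fell there (31.7% and 28.7%), against 9.83% of all tested genes. Both overexpression groups share the higher level of chromosome 5, which WT and DuxKO lack, and 184 of the 939 genes lie on it. Without that chromosome 755 genes rose in both (41.1% and 36.7%) and 556 fell in both (31.6% and 28.6%). Opposite calls were made for 70 of the genes that rose and 107 of those that fell. The difference between the 2 effects was called for 1512 genes (7.5%), positive for 651 (3.23%) and negative for 861 (4.27%). Chromosome 8 stood lower in DuxKO_P7OE (0.030 and 0.033) than in DuxKO (0.33 and 0.34). Chromosome 11 stood higher in DuxKO_P7OE (0.256 and 0.262) than in DuxKO (0.021 and 0.033). How far these shifts bear on the called differences was not tested. Zfp703, Sox1 and Neil3, whose differences are given below, lie on chromosome 8, and Etv4 and Cldn7 on chromosome 11. Lists with medians of like sign in both backgrounds were primitive endoderm (2.78 and 2.68), X-linked testis genes (2.72 and 5.03), germline genes (0.76 and 1.48) and cholesterol synthesis (−0.66 and −0.63). Medians of the 2-cell genes were 3.29 and 0.00, the second set by the 11 of 27 members with 0 counts in all 4 libraries, and the difference was called for 0 of them. Those of the epithelial genes were −0.80 and 1.00, with a called negative difference for 13 of 28.

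Among single genes the difference was most positive for Habp2 (6.25, adjusted p 0.0289), Olig3 (5.23), Grin2a (4.68) and Zfp703 (4.63). Grin2a, a glutamate receptor subunit, rose in P7OE from 0.908 to 1.45 CPM to 3.16 and 5.42 CPM and fell in the Dux knockout from 6.94 and 7.75 CPM to 0.917 and 0.964 CPM. Olig3 and Zfp703 were not called in P7OE (0.46 and 0.29) and fell in the Dux knockout (−4.77 and −4.33). The called differences of Habp2, Olig3 and Zfp703 were lost with 1 library left out, that of Habp2 with any of the 6 outside WT. The difference was most negative for Fmr1nb (−8.32), H19 (−8.03), Gbp3 (−6.31) and Ascl2 (−6.15, adjusted p 5.03e-05). Ascl2, an imprinted trophoblast factor, was at 3.35 to 4.85 CPM in WT and 2.52 and 2.13 CPM in P7OE (−0.86), and at 0.112 and 0.0715 CPM in DuxKO and 3.58 and 3.66 CPM in DuxKO_P7OE (5.28). Its fall in P7OE was not called with either P7OE library left out (edgeR adjusted p 0.137 and 0.255). Fmr1nb, a testis gene, rose in both backgrounds, and like H19 it had 0 counts in both DuxKO libraries, so its fitted difference depends on the prior count. For Fmr1nb the rise in the Dux knockout was at least 105-fold, to 8.44 and 5.21 CPM, against 5.36 and 5.66 CPM in P7OE from 1.09 to 2.01 CPM.

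**Figure D5:**
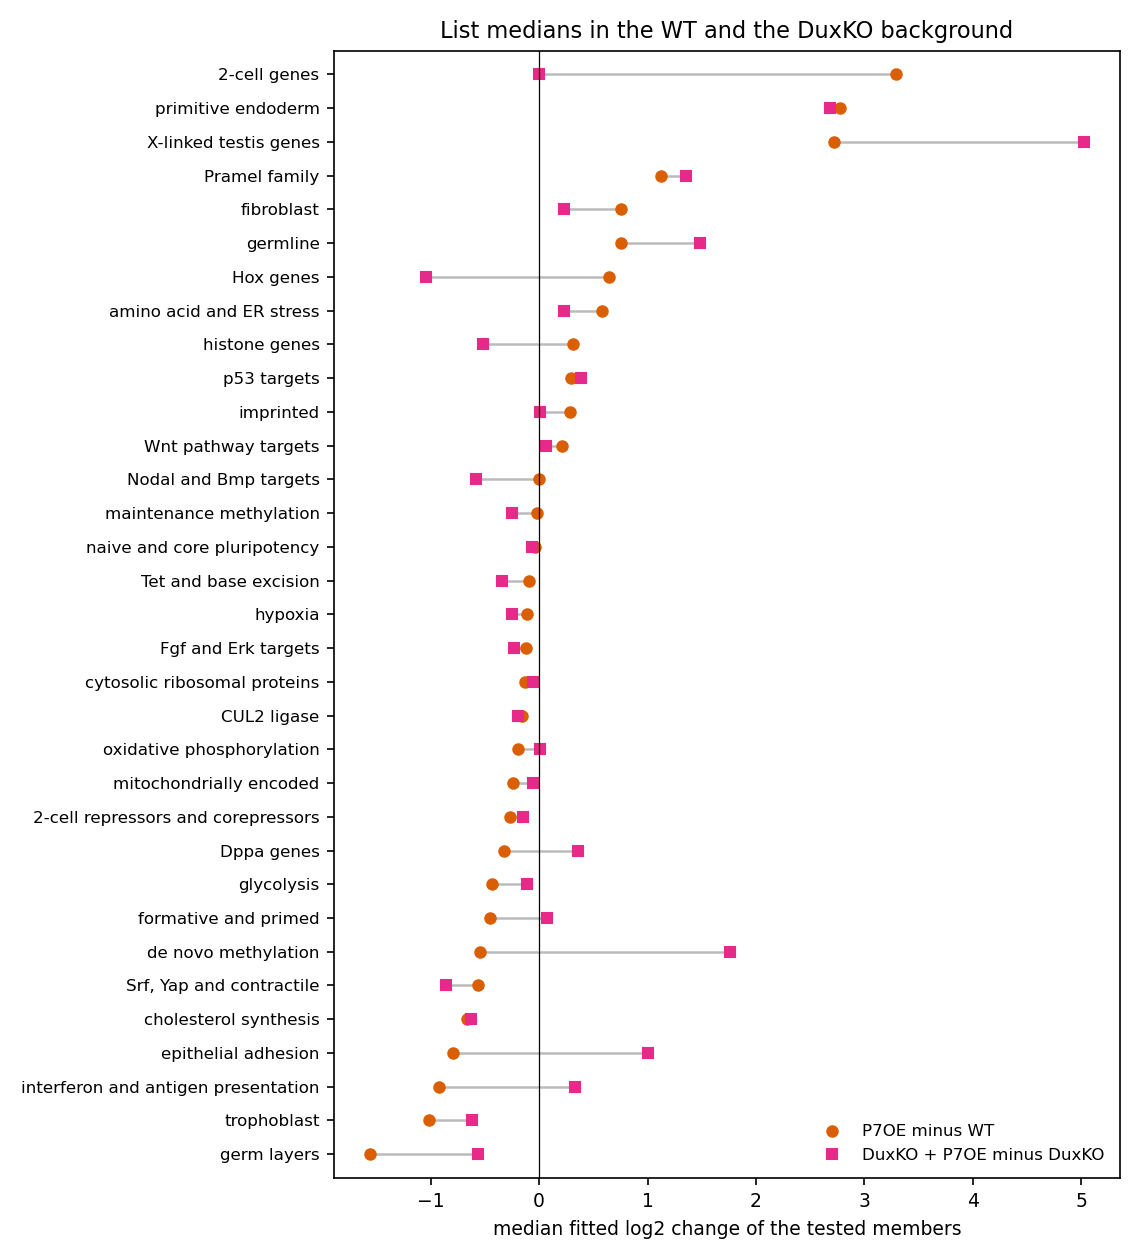
For each gene list (vertical axis), the circle gives its median log2 change (horizontal axis) in P7OE against WT and the square that in DuxKO_P7OE against DuxKO, joined by a line. The circle and square of primitive endoderm lie close together (2.78 and 2.68), those of the 2-cell genes lie apart (3.29 and 0.00), and those of epithelial adhesion lie on opposite sides of 0 (−0.80 and 1.00).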

How the data were processed

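RNA was sequenced from total RNA (PureLink kit) with the Collibri stranded kit, per the labels' protocols. The authors deposited raw counts per gene symbol, 1 column per library, with 0 columns left unmatched. Trim Galore, HISAT2, featureCounts and the mm10 build are named in the submitters' processing notes, without versions. The strand setting and annotation are not given in the sources used here, so overlapping genes and near-identical copies are uncertain. The 6 bisulfite libraries and the other count tables were not analysed here.

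Genes were filtered with filterByExpr (20161 of 55291 kept), scaled by TMM and tested in edgeR 4.0.16 (R 4.3.3) by the quasi-likelihood test, with group as the only term, all 12 libraries in 1 fit and a prior count of 0.125. DESeq2 1.42.0 was an alternative, with other scalings, filters, control pairs and each library left out. A group at 0 gives a bound computed at 3 counts over the group, and a group of 1 to 3 counts gives a ratio with an exact 95% interval. Both cover counting error only.

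Members and lists were chosen with earlier results of these data known. Named were Pramel7, the 10 called genes that rose most and the 10 that fell most (no overlap between libraries, a mean of 50 counts or more where higher, no predicted symbols), up to 4 called members per list, 4 genes per direction for the difference between backgrounds, and 11 genes whatever their result. Genes added to these are marked as named after their values were seen. H19 and H13 were taken out of the histone symbol pattern. RefSeq (GRCm38.p6) matched 17544 of 20161 tested genes by symbol. The log2 CPM of the chromosome medians uses a prior count of 2. Some of the genes to be named are not reported here.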

Additional observations from a re-analysis of the deposited data

Results flagged for a closer look

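The effect of Pramel7 overexpression differed between WT and Dux knockout cells, by the test of the difference itself, for 46 of the named genes. Values are the log2 effect in WT cells minus that in Dux knockout cells, and no explanation was tested. Values for genes with 0 counts in a group, among them Habp2 (6.25), Serpina3m (−5.91), H19 (−8.03) and Fmr1nb (−8.32), depend on the prior count. With each library left out in turn, 20 of the 46 kept their call and 26 lost it in at least 1 fit. The 20 were Gbp3, Enpp2, Dnmt3b, Dnmt3l, Tet3, Tbx3, Klf4, Pou3f1, Etv4, Sox1, H19, Plagl1, Ndrg1, Lefty2, Zeb1, Zeb2, Rpl39l, Grin2a, Fmr1nb and Ascl2. Calls ended for 19 and 20 genes without DuxKO replicates 3 and 4, for 19 and 20 without P7OE replicates 1 and 2, for 18 and 17 without DuxKO_P7OE replicates 1 and 2, and for 4, 3, 4 and 0 without WT replicates 3 to 6. Where 1 library was left in a group, it is assumed to vary like the other groups.

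Positive differences were found for Tex13b (4.48), Olig3 (5.23), Grin2a (4.68), Zfp703 (4.63), Sox1 (3.70), Plagl1 (3.33), Col5a2 (2.53), Thbs1 (1.82) and Vegfa (1.41). The naive factors Klf4 (1.98), Tbx3 (1.55) and Gbx2 (1.07) belong here, as do Etv4 (1.12), the epithelial repressors Zeb1 (2.48) and Zeb2 (2.30), Tet3 (1.2), Neil3 (1.78), Atf5 (1.01), Cox6b2 (1.00), Atp5md (1.38) and H2bc9 (1.11).

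Negative differences were found for the de novo methylation genes Dnmt3c (−3.50), Dnmt3b (−3.14) and Dnmt3l (−2.65), and for the epiblast and streak genes Pou3f1 (−2.66), T (−3.27), Evx1 (−2.86), Sp5 (−2.79) and Lefty2 (−1.26). The remaining ones were Gbp3 (−6.31), Ascl2 (−6.15), Enpp2 (−3.77), Ndrg1 (−2.31), Cldn7 (−2.28), Pramef8 (−1.54), Wnt7b (−1.54), Rpl39l (−1.52), Tuba3a (−1.42), Perp (−0.98), Atp5l (−0.98), Pgk1 (−0.97) and Lin28a (−0.92).

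In 12 of 143 groups of 4 WT values 1 library stood far from the other 3, where chance gives about 1 in 20. Of these, 5 are genes with counts in 1 WT library or almost none in the others: Hkdc1 (0.0770 CPM) and Asz1 (0.0770 CPM) in replicate 5, Xlr5b (0.0385 CPM) in replicate 5, Xlr4b (0.121 CPM) in replicate 4 and BC061212 (0.136 CPM) in replicate 6. High values were those of Plagl1 (1.96 CPM), Phlda1 (6.01 CPM), Pramef8 (14.6 CPM) and Atp5l (261 CPM), all in replicate 6. Low values were those of Xbp1 in replicate 5 (14.9 CPM), Msx1 in replicate 4 (7.15 CPM) and Grin2a in replicate 3 (0.908 CPM).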

How the results depend on the processing

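With 1 library left out, calls in P7OE against WT ran from 1477 to 4818, with 1010 to 2677 higher and 467 to 2141 lower. The lowest values were without P7OE replicate 2 and the highest without WT replicate 6. Against WT replicates 3 and 4 alone there were 6124 calls, 3056 of them lower, an added 2-fold minimum left 1715 (1075 higher and 640 lower), and the fit of WT and P7OE libraries only gave 1098 lower. DESeq2 gave 2413 higher and 2101 lower. Leaving out chromosomes 5 and 8 gave 1671 and 1714. The causes were not tested.

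The difference between backgrounds ran from 651 to 1939 calls with 1 library left out, with 235 to 867 positive and 411 to 1072 negative. It had 3184 calls (1456 and 1728) against WT replicates 3 and 4 alone, 414 positive with the 2-fold minimum and 1361 negative with no filter on low counts. No paired analysis was possible because P7OE and WT share no replicate numbers. The difference between backgrounds was fitted with the replicate number as a block, which gave 2821 calls (1247 and 1574). Deviations of same-numbered libraries from their group means correlated at 0.112 (P7OE and DuxKO_P7OE) and 0.028 (WT and DuxKO). With 1 such value per pair of groups, whether same-numbered libraries share a batch cannot be told.

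Of 133 named genes called in P7OE against WT, 86 kept their call in every refit, with other scalings, filters, controls, tools or 1 library left out, 47 lost it in at least 1 and 0 reversed. The 2-fold minimum, which is no refit, would leave out 30 of the 133, and 78 passed it and kept their call in every refit. Calls ended without P7OE replicate 2 for 43 and without P7OE replicate 1 for 36. Without WT replicate 3, calls ended for Cul2, Asz1, Dppa2, Fbn1, Phlda1 and Ascl2. Without WT replicate 4 they ended for Neil3, Nedd8, Asz1, Lamb3, Phlda1, Hoxa4, mt-Atp6 and Ascl2, without WT replicate 5 for Neil3, Cul2, Vegfa, Phlda1 and Hoxa4, and without WT replicate 6 for Hoxa4 and Ascl2. Among genes named after their values were seen, calls ended without WT replicate 3 for Anxa1, Egln1, Ndufa10, Smad6 and Spint1, and without WT replicate 4 for Ctbp2, Egln1, Ndufa10, Rbx1, Smad6 and Tex15. They ended without WT replicate 5 for Anxa1, Cldn3, Egln1, Kremen1, Spint1 and Tex15, and without WT replicate 6 for Egln1, Kremen1, Spint1 and Tex15. Uhrf1, Tet1 and Dazl, which were not called, changed sign. Uhrf1 was at −0.018 against WT replicates 3 and 4 alone. Tet1 was at 0.91 against that pair, at 0.0021 with upper quartile factors, and from −0.25 to 0.38 with 1 library left out. Dazl ran from −0.032 without P7OE replicate 1 to 1.41 without P7OE replicate 2.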
